A study of Danio rerio with 6 samples.

Results

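Genes that act on tau and genes whose human counterparts alter the risk of dementia were followed in the brains of 6 adult zebrafish. The list named 10 genes: the tau paralogues mapta and maptb, the kinase genes gsk3ba and cdk5, the lipid carrier genes apoea, apoeb and clu, and the risk gene orthologues inpp5d, cd2ap and bin1b. Members were the rows of the deposited table whose platform annotation names 1 gene only, equal to a listed symbol, and the mean of a gene's rows was used. This found 8 of the 10 among 19260 genes, and mapta and maptb were not analysed here, so everything below concerns the genes around tau and not tau itself. The fish (Danio rerio, Tübingen strain, sex not specified) were about 1 year old, and each Affymetrix Zebrafish Gene 1.0 ST array held RNA from a single brain. For 3 fish, called hypoxia 1 to 3, nitrogen had lowered the dissolved oxygen to 1.20 ± 0.6 mg/l for 3 h. The other 3 fish, normoxia 1 to 3, were kept at ambient oxygen of 6.6 ± 0.45 mg/l, where the sources used here do not say what the ± stands for. All fish were killed by cold shock before the brain was taken out. The single comparison asks which brain transcripts differ after a short exposure to low oxygen.

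Tau is a microtubule-associated protein of axons, and in Alzheimer's disease it is heavily phosphorylated and forms tangles. GSK3-beta and CDK5 are the kinases most often named for that phosphorylation, and the phosphatases PP2A and calcineurin remove the phosphates. Apolipoprotein E and clusterin are secreted carriers of lipid that are made mostly by glia in the brain and taken up by receptors of the LDL receptor family. INPP5D, CD2AP and BIN1 lie at human loci associated with Alzheimer's disease and act in microglial signalling, in the actin-linked traffic of receptors and in the bending of membranes. The roles given here are those of the mammalian proteins.

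Values are log2 expression values as deposited, and differences are hypoxia minus normoxia on that scale, so that a difference of 1 is a doubling of signal. The arrays were not equal in distribution. The median gene value was 7.32 to 7.38 in hypoxia and 7.40 to 7.60 in normoxia, highest in normoxia 1. Over all deposited rows normoxia 1 had instead the lowest median, 6.28. The SD of gene values ran from 1.25 in hypoxia 1 to 1.60 in normoxia 1, with normoxia 2 (1.27) next to hypoxia 1. Over all genes the median difference was -0.08 and 61.1% had a lower mean in hypoxia, a share that rose with level, from 35.3% of genes with a mean below 6 to 56.0% between 6 and 8 and 77.5% between 8 and 10. Limma called 1 of the 19260 genes at an adjusted p under 0.05 (0.00519%), and that gene is none of the members. The tissue label was borne out by markers, with snap25a, a synaptic gene, at 12.62 to 13.25 and mbpa, a myelin gene, at 11.64 to 12.30 in the 6 brains.

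No member passed the test. The values of both groups overlapped in all 8, where 11.3% of all genes had no overlap. Of the 8 members, 7 had a lower mean in hypoxia, with a median difference of -0.25, where 61.1% of all genes were lower. Their median level was 8.74, in the range from 8 to 10 where 77.5% of all genes were lower, with a median of -0.18. 1 member, inpp5d, was past an unadjusted p under 0.05, as were 6.66% of all genes, or 5.76% when only those lower in hypoxia are taken. That background of 1283 genes depended on single arrays, being 4747 without normoxia 2, 507 without hypoxia 1, 634 without normoxia 3, 746 without hypoxia 2 and 776 without normoxia 1.

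**Figure D1:**
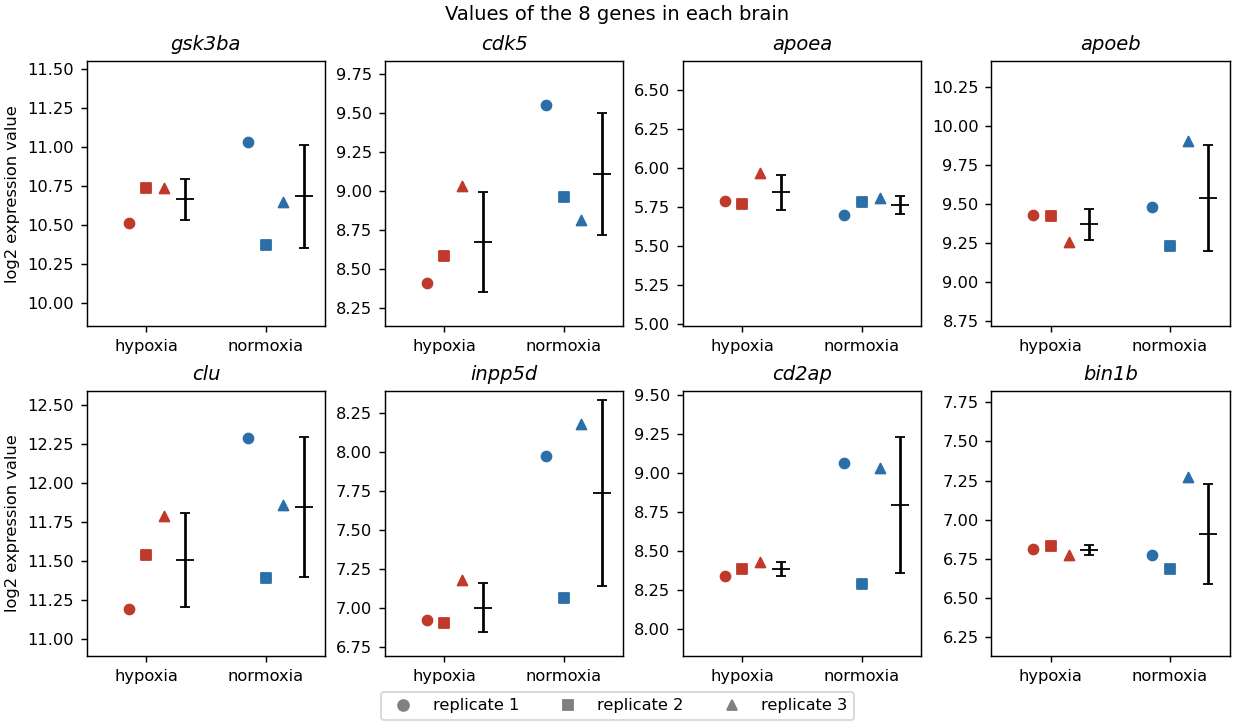
Log2 expression values (vertical axes, each spanning 1.7 units) of the 8 genes in the 3 hypoxia (red) and 3 normoxia (blue) brains, with symbols for the replicate number of the label and black bars for the mean ± SD. The groups overlap in every panel, and in inpp5d and cd2ap the points of normoxia 1 and 3 stand above all hypoxia points while normoxia 2 lies among them (inpp5d) or just below them (cd2ap).

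Among the kinases, gsk3ba had nearly equal means and cdk5 a lower mean in hypoxia. The gene gsk3ba encodes a glycogen synthase kinase 3 beta that phosphorylates tau at many sites. Its values were 10.51, 10.74 and 10.74 in hypoxia and 11.03, 10.37 and 10.65 in normoxia. The hypoxia values all lay between the highest and the lowest normoxia brain, and the difference was -0.02 (SE 0.21, 95% confidence interval -0.50 to 0.46, limma adjusted p = 0.986). Its sign depended on scaling, with 0.12 when arrays were given equal medians and 0.21 after quantile normalization of gene values.

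The gene cdk5 encodes a neuronal kinase that is inactive without a p35 or p39 partner. Its values were 8.41, 8.58 and 9.03 in hypoxia and 9.55, 8.96 and 8.81 in normoxia. All 3 hypoxia brains lay below the normoxia mean, but hypoxia 3 exceeded normoxia 2 and 3. The difference was -0.43 (SE 0.25, interval -1.01 to 0.14, limma adjusted p = 0.736). It was -0.21 without normoxia 1 and -0.61 without hypoxia 3.

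Whether the kinases differed in their change was asked within each fish, by subtracting the log2 value of cdk5 from that of gsk3ba, which cancels a shift common to both genes on an array. This difference averaged 1.99 ± 0.24 over the hypoxia fish and 1.58 ± 0.23 over the normoxia fish (mean ± SD, n = 3 fish in each group). Its absolute size reflects probes as well as transcripts. The group difference of 0.41 had an exact two-sided permutation p of 0.2, or 0.4 adjusted over the 2 pairs tested, where 0.1 is the smallest p that 3 against 3 fish allow.

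The other glycogen synthase kinase 3 genes had overlapping groups. The difference was -0.06 for gsk3bb, -0.28 for gsk3ab and -0.49 for gsk3aa, and none passed (limma adjusted p = 0.948, 0.757 and 0.755). The sign of gsk3bb turned with scaling, to 0.08 with equal array medians. In gsk3aa the values were 8.10, 8.67 and 8.83 in hypoxia and 9.73, 8.41 and 8.93 in normoxia, so that normoxia 1 alone stood far above the hypoxia brains, and the difference was -0.14 without it and -0.80 without normoxia 2.

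The activators of cdk5 had differences of both signs. The p39 paralogues went opposite ways: cdk5r2b was 7.21, 7.14 and 7.14 in hypoxia against 7.43, 7.30 and 7.57, with no overlap, while cdk5r2a was 9.13, 9.30 and 9.05 against 9.11, 8.57 and 8.93. Their differences were -0.27 and 0.29 (adjusted p = 0.740 and 0.756), and the difference between them was not tested. The p35 paralogues cdk5r1a and cdk5r1b had differences of -0.42 and -0.17, of which the second turned to 0.05 after quantile normalization. The difference of cdk5r1a ran from -0.73 without hypoxia 3 to -0.20 without normoxia 1, and that of cdk5r2a was 0.14 without normoxia 2. Apart from cdk5r2b, the activators were named after their values were seen.

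Of 54 listed tau kinases and activators other than the members, 46 were measured, 17 with a higher and 29 with a lower mean in hypoxia. Their median difference was -0.07, against -0.08 for all genes and -0.18 for genes with a mean between 8 and 10. The median level of the list was 8.885, in that range, where 77.5% of all genes were lower. The list median was 0.07 without normoxia 1 and -0.27 without normoxia 2. None passed over all genes and none reached an unadjusted p under 0.05. Groups did not overlap in 2 of them, both lower, where 9.02% of all genes did not overlap and were lower. These were cdk5r2b and brsk1a, a brain-specific kinase that phosphorylates microtubule-associated proteins, with values of 7.47, 7.23 and 7.40 in hypoxia and 8.16, 7.60 and 7.66 in normoxia (difference -0.44, adjusted p = 0.720). The p38-family gene mapk13 had a difference of -0.35 (adjusted p = 0.738).

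Genes listed as tau phosphatases and their regulators mostly had lower means in hypoxia. This list mixes catalytic genes with subunits and other regulators, among them seta, setb, anp32a and ppme1. Counts over it do not show a direction of phosphatase activity, which was not tested. Of 27 measured tau phosphatases and regulators (29 listed), 24 had a lower mean in hypoxia and the median difference was -0.26, or -0.07 without normoxia 1. Lower without overlap were 0 of the 27, where 9.02% of all genes were. None passed. The one with the smallest p was ptpa, an activator of PP2A, at 7.48, 8.11 and 8.32 in hypoxia against 9.24, 8.22 and 8.74 (difference -0.76, SE 0.30, adjusted p = 0.720). Only hypoxia 3 reached above a normoxia brain there. The PP1 catalytic gene ppp1cb (-0.50) and the PP2A regulatory subunit genes ppp2r2d (-0.41) and ppp2r2ab (-0.44) had adjusted p from 0.720 to 0.727. The median level of this list was 9.48, in the range where 77.5% of all genes were lower, and its median difference became -0.12 under equal array medians, -0.05 after quantile normalization and 0.01 when the model also held the spread of each array, a setting chosen later, with the results known.

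Other proteins that bind or regulate microtubules had a median close to the -0.08 of all genes. Their median level was 9.23, in the range where 77.5% of all genes were lower, with a median of -0.18. Of 29 measured, 19 had a lower mean and 10 a higher one, with a median of -0.11, which turned to 0.03 with equal array medians and 0.09 after quantile normalization. Those with the smallest p were mapre3a (-0.90), which tracks growing microtubule ends, the tubulin-binding stathmin gene stmn3 (-0.58), map7b (-0.27), whose protein recruits kinesin, and map6b (-0.32), whose protein stabilizes microtubules. None passed, with adjusted p from 0.720 to 0.757. Only map7b had no overlap among these 4, its hypoxia values of 7.51 to 7.76 lying just under the normoxia values of 7.78 to 8.12. Of the 29 genes, 1 was lower and 1 higher without overlap, where 9.02% and 2.33% of all genes were.

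**Figure D2:**
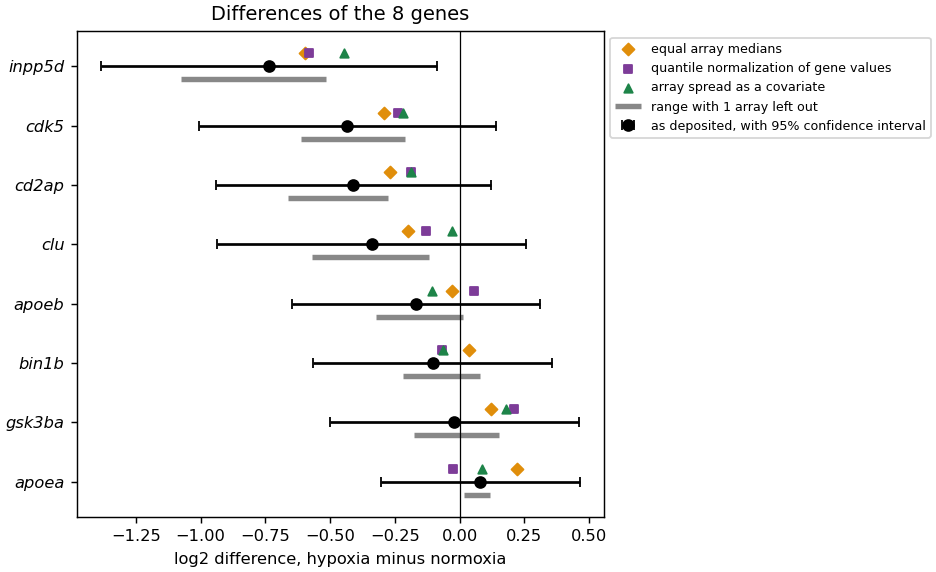
Log2 difference, hypoxia minus normoxia, of the 8 genes (horizontal axis) as deposited, with its 95% confidence interval (black), under 3 other scalings or covariates (coloured symbols) and over the fits that leave out 1 array (grey bars). Only the interval of inpp5d, -1.39 to -0.09, lies wholly below 0, and gsk3ba, apoea, apoeb and bin1b cross 0 under at least 1 other setting.

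The apolipoprotein E paralogues showed small differences of opposite sign. The medians over all genes in the level ranges of their means were of opposite sign too. The median difference of all genes was 0.09 below a mean of 6, where apoea lies. It was -0.18 between 8 and 10, where the mean of the 2 array rows of apoeb lies. The brighter of these rows lies between 10 and 12, where the median was -0.20. The dimmer one lies mostly between 6 and 8, where it was -0.04. In zebrafish apoea and apoeb are separate genes that encode secreted lipid carriers. The values of apoea were 5.79, 5.77 and 5.97 in hypoxia and 5.70, 5.78 and 5.81 in normoxia. It is a dim gene with the smallest range of the 8, 0.27 over the 6 brains, and only hypoxia 3 stood above all normoxia brains. The difference was 0.08 (SE 0.17, interval -0.30 to 0.46, limma adjusted p = 0.910), and after quantile normalization it was -0.03.

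The values of apoeb were 9.43, 9.42 and 9.255 in hypoxia and 9.48, 9.23 and 9.90 in normoxia. Its hypoxia brains differed by 0.18 and its normoxia brains by 0.67, with normoxia 2 lowest and normoxia 3 highest of all. The difference was -0.17 (SE 0.21, interval -0.65 to 0.31, adjusted p = 0.838). It became 0.01 without normoxia 3 and 0.06 after quantile normalization.

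A pair of array rows makes up apoeb, and they ranked the normoxia brains differently. The brighter row had 11.33, 11.29 and 11.11 in hypoxia and 11.23, 11.56 and 11.48 in normoxia. The dimmer row had 7.53, 7.55 and 7.40 in hypoxia and 7.73, 6.90 and 8.32 in normoxia. Normoxia 2 was the highest of the 6 brains in the brighter row and the lowest in the dimmer one, while the differences between groups, -0.18 and -0.16, were alike. In normoxia the dimmer row ranged over 1.42 and the brighter row over 0.33.

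Within each fish, apoea minus apoeb was -3.53 ± 0.21 in hypoxia and -3.77 ± 0.32 in normoxia (n = 3 each). The group difference of 0.25 had an exact two-sided permutation p of 0.4, unchanged when adjusted over the 2 pairs, and was 0.09 without normoxia 3 and -0.08 after quantile normalization. Both genes lie in level ranges whose medians over all genes also differ in sign, a shift that this subtraction does not cancel.

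Clusterin, a secreted chaperone that also carries lipid, had a lower mean in hypoxia. The values of clu were 11.19, 11.54 and 11.79 in hypoxia and 12.29, 11.39 and 11.86 in normoxia. Normoxia 1 and 3 stood above all hypoxia brains and normoxia 2 below 2 of them. The difference was -0.34 (SE 0.26, interval -0.94 to 0.26, adjusted p = 0.765). It ran from -0.57 without normoxia 2 to -0.12 without normoxia 1 and was -0.03 with array spread in the model.

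Markers of radial glia and astroglia, cells that make these carriers in the mammalian brain, were lower in 16 of 20 measured genes (median -0.43). The list had a median level of 9.86, in the range where 77.5% of all genes were lower, with a median of -0.18. The summed level of the list, obtained by centring each gene on its mean over the 6 brains and averaging, was -0.40 to -0.06 in hypoxia and 0.27, -0.17 and 0.52 in normoxia. The part of this list in the values of clu and apoeb was not tested. The list was not uniform. Without overlap 5 of the 20 genes were lower, among them nes (-0.83) and atp1b4 (-0.94), where 9.02% of all genes were. The most highly expressed genes of the list, glula (-0.03) and cyp19a1b (0.39), overlapped between groups. In RNA from a whole brain, fewer cells of a type and less RNA per cell cannot be told apart.

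The list of other apolipoproteins, lipid transporters and their receptors held more genes with a higher than a lower mean in hypoxia. Of 37 measured genes in the list of apolipoproteins, lipid transporters and receptors (48 listed), 25 had a higher mean in hypoxia and 12 a lower one, with a median of 0.13, and none passed over all genes. All 13 measured apolipoprotein genes of the list had a higher mean (median 0.22), and they were dim, with mean levels of 4.24 to 7.09. Their median level was 6.24. Below 6, where part of them lie, 35.3% of all genes were lower, and between 6 and 8, where the rest lie, 56.0% were. Only 1 of the 13 was higher without overlap, where 2.33% of all genes were. Normoxia 1 was the lowest brain in all of them except apoa4b.2, apoa1a and apodb. In apoa2 and apom normoxia 1 (5.30 and 4.08) was the lowest and normoxia 2 (6.43 and 5.82) the highest of the 6 brains. The other 24 genes, mostly receptors and transporters, were evenly split, 12 having a higher and 12 a lower hypoxia mean. At an unadjusted p under 0.05, 3 were higher, where 0.903% of all genes were. In 6 of the 37 the hypoxia values all lay above the normoxia values, where 2.33% of all genes did so. These were apoa4b.1, abca1a, lrp1aa, lrp1ab, lrp1bb and abca7, of which lrp1ab, lrp1bb and abca7 are singled out after their values were seen.

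The measured lrp1 genes, whose products are large endocytic receptors for apolipoprotein E, were all among them. The values of lrp1aa were 9.85, 9.88 and 9.69 in hypoxia and 9.32, 8.88 and 9.66 in normoxia (difference 0.52, SE 0.23, limma adjusted p = 0.720). The gap between hypoxia 3 and normoxia 3 was small, and normoxia 2 was the lowest. The values of lrp1ab were 9.27, 9.35 and 9.27 in hypoxia and 9.16, 8.49 and 9.04 in normoxia (difference 0.40, adjusted p = 0.720), and without normoxia 2 the differences were 0.20 for lrp1ab and 0.32 for lrp1aa.

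The remaining measured gene, lrp1bb, had the tightest groups, at 8.16, 8.13 and 8.10 in hypoxia and 7.86, 7.76 and 7.75 in normoxia. Its difference of 0.34 (SE 0.17, adjusted p = 0.720) stayed between 0.32 and 0.38 with any 1 array left out. With equal array medians the differences of lrp1aa, lrp1ab and lrp1bb were 0.66, 0.54 and 0.48. That setting raises the difference of every gene by the same amount, so the rise says nothing about these genes. All 3 were positive in the 14 alternative settings, but this count is no support. Where groups do not overlap, leaving out 1 array cannot turn the sign, and several other settings leave the difference itself unchanged. lrp1aa, lrp1ab and lrp1bb lie at levels of 7.75 to 9.88, where most genes had lower means in hypoxia.

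The cholesterol exporter gene abca1a, whose product loads lipid onto apolipoprotein E, had hypoxia values of 9.45, 9.75 and 9.51 and normoxia values of 9.04, 9.34 and 8.89. The difference was 0.48 (SE 0.20, adjusted p = 0.720). The related abca7, at a human Alzheimer locus, had 7.49, 7.40 and 7.33 against 7.32, 7.03 and 7.25 in normoxia, a smaller difference of 0.21 (adjusted p = 0.774). Both groups of abca7 nearly touched, at 7.33 and 7.32.

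Against these, lrpap1, the chaperone that escorts receptors of this family through the secretory pathway, had lower values without overlap, at 7.48, 7.71 and 7.69 in hypoxia and 8.09, 8.03 and 8.35 in normoxia. Its difference was -0.53 (SE 0.18, adjusted p = 0.720). The apolipoprotein gene apoa4b.1 (0.67, adjusted p = 0.720) was dim, at 3.49 to 4.75, in the range below 6 where only 35.3% of genes had a lower mean in hypoxia. The whole list had a median of 0.27 once arrays had equal medians, which raises the difference of every gene alike. It was 0.14 after quantile normalization and 0.02 with array spread in the model.

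**Figure D3:**
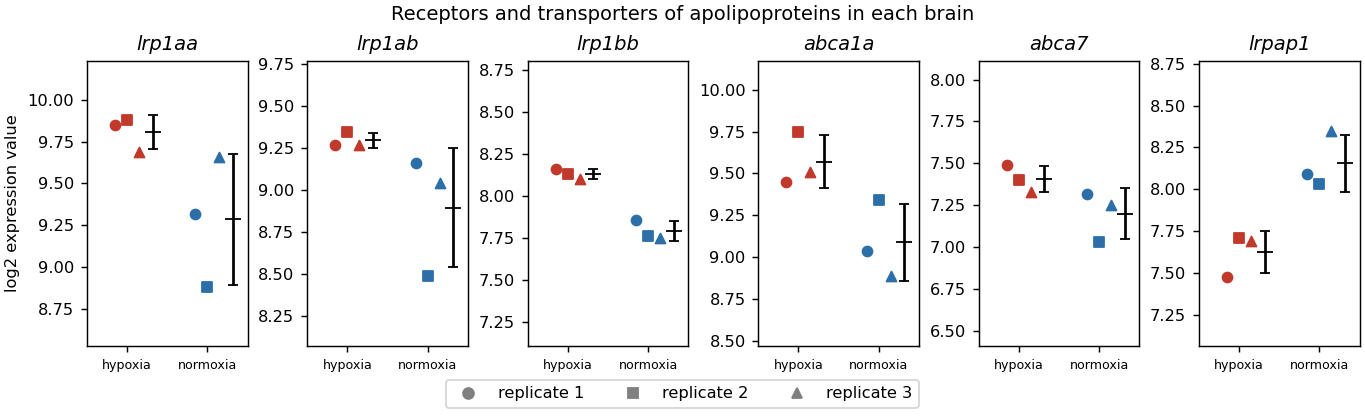
Log2 expression values (vertical axes, each spanning 1.7 units) of receptor genes lrp1aa, lrp1ab and lrp1bb, exporter genes abca1a and abca7 and the receptor chaperone gene lrpap1 in the hypoxia (red) and normoxia (blue) brains, with the mean ± SD in black. Groups do not overlap in any panel, with hypoxia higher in the first 5 and lower in lrpap1, and none of the 6 passed the test over all genes.

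Among the risk gene orthologues, inpp5d had the largest difference of the 8 members. The gene encodes SHIP1, a lipid phosphatase of blood-derived cells and microglia that dampens signalling through PI3K. Its values were 6.92, 6.90 and 7.18 in hypoxia and 7.97, 7.06 and 8.18 in normoxia. Normoxia 1 and 3 stood well above every hypoxia brain, and normoxia 2 lay among the hypoxia brains, below hypoxia 3. The difference was -0.74 (SE 0.29, interval -1.39 to -0.09, unadjusted p = 0.0301, limma adjusted p = 0.720), a signal 1.67-fold higher in normoxia. By unadjusted p it ranked 753 of 19260 genes. The difference ran from -0.52 without normoxia 3 to -1.08 without normoxia 2, was -0.60 with equal array medians and had adjusted p values of 0.0836 or more in all 14 alternatives.

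The mean of the microglial markers had its highest and its lowest normoxia brain in common with inpp5d. Of 18 measured microglia genes (24 listed) 15 had a lower hypoxia mean, the median difference being -0.43 (61.1% of all genes were lower). Their median level was 8.005, at the lower edge of the range from 8 to 10. There 77.5% of all genes were lower, with a median of -0.18. Without overlap, 4 of the 18 were lower (9.02% of all genes). The list median was -0.26 without normoxia 3 and -0.62 without normoxia 2. Their summed level took values of -0.28, -0.26 and -0.09 in hypoxia and 0.30, -0.23 and 0.55 in normoxia. The list shared with inpp5d the low value of normoxia 2 and the highest value in normoxia 3, as did the list of radial glia and astroglia. Normoxia 2 was also low in the summed levels of the neuron (-0.315) and oligodendrocyte (-0.212) lists. It was high in those of the endothelial (0.173) and erythrocyte (0.506) lists. The microglia list was not uniform, and 3 of its 18 genes had a higher hypoxia mean, by up to 0.51. The chemokine gene ccl34b.1 (-0.97), the transcription factor gene irf8 (-0.71) and cd74a (-0.51), of antigen presentation, were the named examples, all lower, and none of them passed. Those picked out after their values were seen were mpeg1.1, a macrophage pore protein gene at 8.13, 8.17 and 8.71 in hypoxia and 10.18, 8.52 and 10.49 in normoxia, and p2ry12, a purine receptor gene of resting microglia, with a difference of -0.45. Among these named markers normoxia 2 lay above every hypoxia brain in ccl34b.1, irf8 and p2ry12, unlike in inpp5d. In cd74a and mpeg1.1 it lay among the hypoxia brains. The part of microglial RNA in the difference of inpp5d was not tested.

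**Figure D4:**
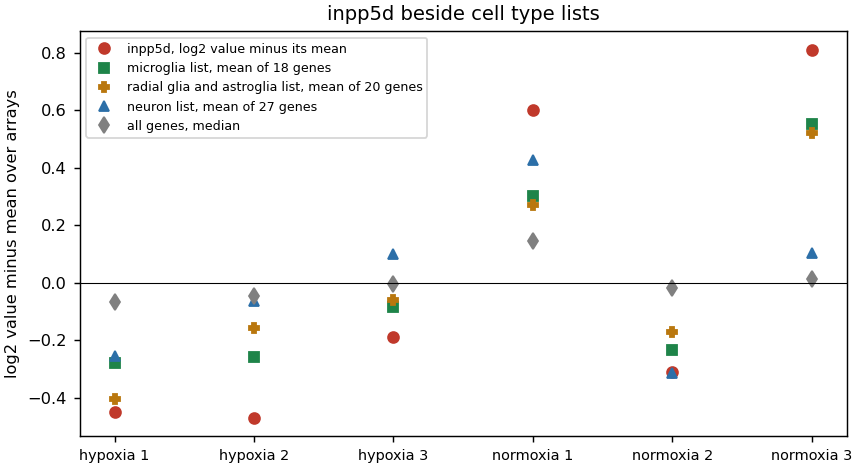
Log2 value minus its mean over the 6 arrays (vertical axis) in each brain for inpp5d (circles), the mean of 18 microglia genes (squares), the mean of 20 radial glia and astroglia genes (plus signs), the mean of 27 neuron genes (triangles) and the median of all genes (diamonds). inpp5d, the microglia list and the radial glia and astroglia list are all highest in normoxia 3 and low in normoxia 2. The neuron list is also low in normoxia 2 but is highest in normoxia 1.

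The gene cd2ap, whose product links membrane receptors to actin and endocytosis, had a lower mean and very even values in hypoxia. They were 8.34, 8.38 and 8.43 in hypoxia and 9.06, 8.29 and 9.03 in normoxia. The 3 hypoxia brains lay within 0.09, and normoxia 2 lay below all of them, while normoxia 1 and 3 stood well above. The difference was -0.41 (SE 0.23, interval -0.94 to 0.12, adjusted p = 0.733), or -0.66 without normoxia 2 and -0.28 without normoxia 1.

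The gene bin1b, a member of the amphiphysin family that bends membranes and in humans lies at a leading risk locus, differed little. Its values were 6.81, 6.83 and 6.77 in hypoxia and 6.77, 6.68 and 7.27 in normoxia. A single brain, normoxia 3, stood apart from the other 5. The difference was -0.10 (SE 0.20, interval -0.56 to 0.36, adjusted p = 0.900), which turned to 0.08 without that brain and to 0.04 with equal array medians.

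The endocytic and phosphoinositide relatives of inpp5d, cd2ap and bin1b were lower in 26 of 37 measured cases, with a median of -0.15, or -0.01 with equal array medians and -0.28 without normoxia 2. These relatives had a median level of 8.44, in the range where 77.5% of all genes were lower. None passed, 4 were lower at an unadjusted p under 0.05 (5.76% of all genes were), and 4 were lower without overlap (9.02% of all genes). Those 4 were the clathrin light chain gene cltb (-0.68), the endophilin genes sh3gl1b (-0.63) and sh3gl3b (-0.46), and capza1b (-0.64), which encodes an actin capping protein that binds CD2AP. The values of sh3gl3b were 7.02, 7.16 and 6.91 in hypoxia and 7.50, 7.47 and 7.50 in normoxia, the narrowest normoxia group of these 4. Their limma adjusted p was 0.720 each.

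In the other Alzheimer risk gene orthologues, 25 of 32 measured genes had a lower mean, but the median was only -0.09, and 0.05 with equal array medians and -0.24 without normoxia 2. Their median level was 8.22, in the range where 77.5% of all genes were lower. The members with the smallest p were spi1b (-0.87), which encodes the myeloid transcription factor PU.1, tspan14 (-0.68), a tetraspanin gene, csf1rb (-0.48), a receptor gene for a macrophage growth factor, and ndufaf6 (-0.36), of complex I assembly. None passed, with adjusted p from 0.720 to 0.736. Of these, spi1b had hypoxia values of 7.94, 7.96 and 8.23 and normoxia values of 9.59, 8.05 and 9.10, again with normoxia 2 among the hypoxia brains. Both spi1b and csf1rb are also in the microglia list.

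The orthologues of genes for frontotemporal dementia had the lowest median of the 7 pathway lists, -0.37, with 18 of 22 measured genes lower, and none passed. At the median level of this list, 8.675, 77.5% of all genes were lower, with a median of -0.18 (range from 8 to 10). The list median was -0.21 without hypoxia 1, -0.23 with equal array medians and -0.16 after quantile normalization. Only 1 of the 22 genes was lower without overlap, where 9.02% of all genes were. The mitochondrial gene chchd10 had hypoxia values of 8.48, 8.77 and 8.97 and normoxia values of 9.48, 9.27 and 9.55, without overlap (difference -0.69, SE 0.20, unadjusted p = 0.00642, adjusted p = 0.720). The membrane-scission genes chmp2ba (-0.52) and chmp2bb (-0.49) and the lysosomal gene tmem106bb (-0.61) overlapped between groups.

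**Figure D5:**
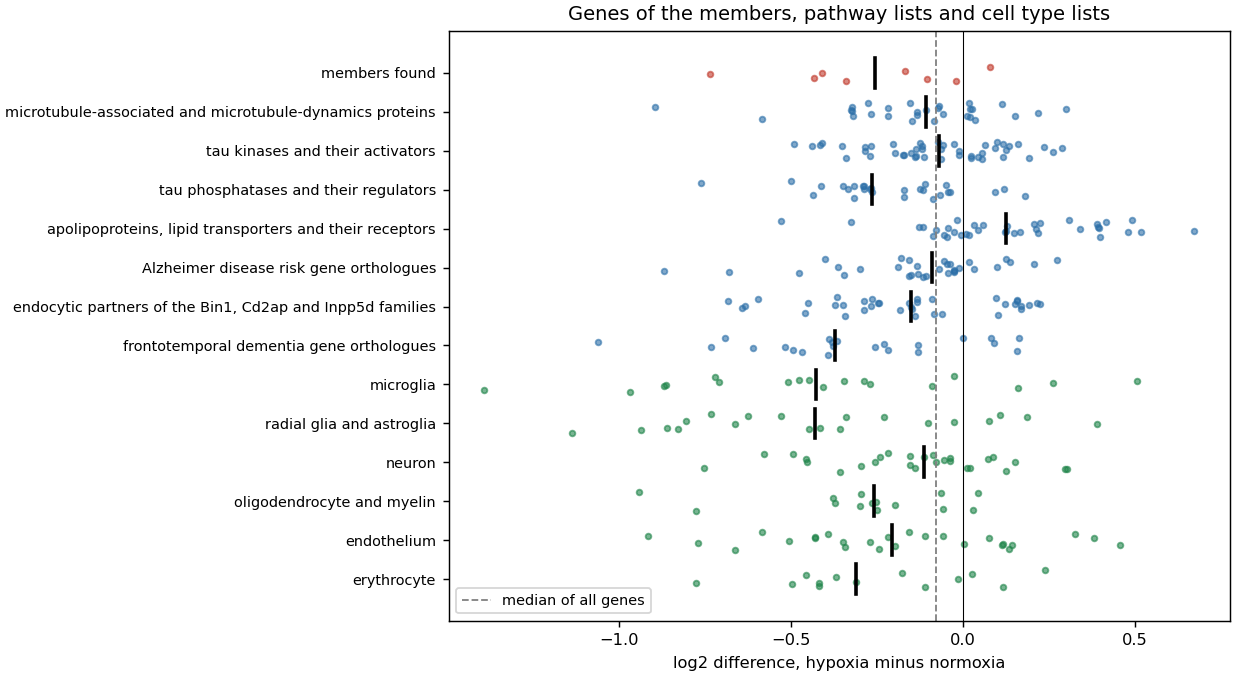
Log2 difference, hypoxia minus normoxia, of each measured gene (points) in the 8 members (red), the 7 pathway lists (blue) and the 6 cell type lists (green), with the list median as a black bar and the median of all genes as a dashed line. The list of apolipoproteins, transporters and receptors is the one with a median above 0, at 0.13.

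Most members varied more among the normoxia than among the hypoxia brains. In 7 of 8 the normoxia brains spread more widely than the hypoxia brains, as they did in 70.6% of all genes, and in 7 of 8 the highest brain was in normoxia (71.8% of all genes). The exception in both was apoea, lowest in normoxia 1 and highest in hypoxia 3. The highest brain was normoxia 1 for gsk3ba, cdk5, clu and cd2ap, and normoxia 3 for apoeb, inpp5d and bin1b. Normoxia 2 was the lowest of the 6 brains in gsk3ba, apoeb, cd2ap and bin1b, and it lay below the hypoxia mean in 6 of the 8, against 44.2% of all genes. The mean of the 8 members, each minus its own mean, stood at -0.24, -0.14 and -0.02 in hypoxia and at 0.32, -0.19 and 0.28 in normoxia.

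The spread of the arrays moved with these values. The 2 arrays with the smallest SD of gene values, hypoxia 1 and normoxia 2, had the lowest member means, and normoxia 1, with the largest SD, the highest. With array spread in the model, the median difference of the 8 members was -0.09 in place of -0.25, and it was -0.11 with equal array medians and -0.10 after quantile normalization. Single members were fitted with array spread in the model as well, but the part of their differences that goes with array spread was not tested.

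The remaining cell type lists are given as measured, since the members are made by several cell types. Of 27 neuron markers, 19 had a lower hypoxia mean (median -0.11), and the levels of eno2 (-0.49), snap25a (-0.08), nefla (-0.75) and slc17a7a (-0.45) overlapped between groups except in slc17a7a. The neuron median turned to 0.03 with equal array medians, and the difference of snap25a to 0.06. Oligodendrocyte and myelin markers were lower in 12 of 14, with a median of -0.26, from olig2 (-0.94) and fa2h (-0.78) to mag (-0.30) and mbpa (0.03). Endothelial markers were lower in 17 of 26, with a median of -0.21, among them fli1 (-0.58) and slc2a1a (-0.77), while mfsd2ab had a difference of 0.46. Erythrocyte markers were lower in 10 of 13, with a median of -0.31, among them cahz (-0.78), hbba2 (-0.42) and tfr1a (-0.31), and their summed level was highest in normoxia 2, at 0.51, where the members were low. None of these genes passed the test. Lower without overlap were 8 of 26 endothelial, 1 of 27 neuron, 1 of 14 oligodendrocyte and 2 of 13 erythrocyte markers (9.02% of all genes). Higher without overlap were 2 endothelial markers (2.33% of all genes). By median level, the neuron list lay where 78.1% of all genes were lower and the oligodendrocyte list where 77.5% were. The endothelial and erythrocyte lists lay where 56.0% were.

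Genes with the most similar profiles were sought by the root mean square difference between the log2 values of a gene and a member over the 6 arrays, each centred on its own mean. For inpp5d the closest named genes were cd226 (0.05) and apbb1ip (0.08), and 57 genes in all lay within 0.15. For cdk5 they were acyp1 (0.04) and tars1 (0.06), with 294 genes within 0.15. For clu they were trim44 (0.03) and slc1a1 (0.03), for cd2ap lrrn1 (0.04) and zc2hc1a (0.04), and for gsk3ba bltp3b (0.02) and znf385c (0.03). The flatter profiles of apoea, apoeb and bin1b lay closest to klhl32 and tcf15 (0.03 each), to drc2 (0.04) and rpl13 (0.06), and to krt8 and fam114a1 (0.05 each). Between 57 and 2157 genes lay within 0.15 of a member, so closeness over 6 arrays does not single out a gene.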

How the data were processed

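According to the design text and the submitters' processing notes, the authors scanned the arrays, imported them into Affymetrix Expression Console and adjusted intensities by RMA background correction and quantile normalization, and no version is given in the sources used here. Deposited values are log2 values, as judged from their range of 1.62 to 14.34, in 75212 rows, of which 20806 named 1 gene. Medians of the deposited rows still ran from 6.28 in normoxia 1 to 6.60 in normoxia 2. They were 6.38 in normoxia 3 and 6.45 to 6.59 in hypoxia, an order unlike that of the median gene values. RMA subtracts background and compresses differences of dim genes. Symbols were updated through Entrez identifiers with RefSeq names of assembly GRCz12tu. Rows were averaged per gene, with no filter on dim genes.

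Groups came from the sample titles. Hypoxia was compared with normoxia by limma 3.58.1 in R 4.3.3 (lmFit, eBayes, no covariate), adjusted by Benjamini-Hochberg over 19260 genes at a threshold of 0.05. The 2 paralogue or kinase pairs were tested by exact permutation over fish. The third planned pair, of tau paralogues, was not analysed here. There were 7 pathway lists and 6 cell type lists, which leave out the members and are described without a test. A gene of the planned phosphatase list is not reported here. Members and lists were chosen with earlier results of these data known. Named genes were the members and gsk3 paralogues, the 4 smallest p of each pathway list, the 2 smallest p and 2 highest levels of each cell type list and the 2 closest profiles of each member. Genes named after their values were seen were cdk5r1a, cdk5r1b, cdk5r2a, lrp1ab, lrp1bb, abca7, mpeg1.1 and p2ry12.

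The procedure was tested on simulated data. It recovered 31% of 100 genes given a difference of 1 and 91% of 100 genes given -2, and called 5 unchanged genes. Changes as small as those of the members would mostly be missed, so the lack of a call does not show that a member was unchanged. Array values carry no molecule counts, and the 3 fish per group limit the precision. Other settings tried were the replicate number as a block, leaving out each array, equal medians or quantiles, a minimum mean level of 6, each gene's brightest row, and an intensity trend or robust moderation. Array spread as a covariate was added after the data were seen.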

Additional observations from a re-analysis of the deposited data

How the results depend on the processing

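No member passed the threshold in any of the 14 alternative settings, of which 13 apply to apoea, since its mean of 5.80 keeps it out of the genes with a mean over 6. Members negative in all 14 were cdk5, clu, inpp5d and cd2ap. The number of genes past the threshold was 1 with the replicate block, 0 to 17 with 1 array left out (17 without normoxia 2), 2 after quantile normalization of gene values, 0 among genes with a mean over 6 and 0 with an intensity trend, where limma gave 1255 and 1300 genes at an unadjusted p under 0.05. With the replicate block the adjusted p of inpp5d was 0.832, and the block changed no call. Whether the replicate numbers pair the fish could not be decided from the arrays. Deviations of same-numbered arrays from their group means correlated at -0.34, 0.10 and 0.20. Those of differently numbered arrays ran from -0.47 to 0.42, and 3 arrays per group are too few to tell these apart. Equal array medians moved the median difference of all genes from -0.08 to 0.06. Of the 83 genes named, 17 changed sign in some setting, and the cause was not tested. With equal array medians the differences were 0.12 for gsk3ba, 0.0367 for bin1b, 0.11 for glula, 0.0633 for snap25a, 0.0767 for gsk3bb, 0.10 for bltp3b, 0.13 for znf385c, 0.03 for drc2, and 0.0267 each for krt8 and fam114a1. Quantile normalization of gene values gave 0.21 for gsk3ba, -0.0258 for apoea, 0.0575 for apoeb, 0.22 for glula, 0.11 for snap25a, 0.13 for gsk3bb, 0.0481 for cdk5r1b, 0.16 for bltp3b, 0.21 for znf385c, 0.0703 for rpl13, 0.11 for krt8 and -0.0833 for the difference of apoea minus apoeb. With array spread as a covariate they were 0.18 for gsk3ba, 0.0846 for glula, 0.069 for snap25a, 0.15 for gsk3bb, 0.0398 for cdk5r1b, 0.15 for bltp3b and 0.20 for znf385c. With 1 array left out, signs turned within -0.18 to 0.15 for gsk3ba, -0.32 to 0.0133 for apoeb, -0.22 to 0.0783 for bin1b, -0.20 to 0.15 for glula, -0.18 to 0.0717 for snap25a, -0.16 to 0.17 for mbpa, -0.0767 to 0.85 for mfsd2ab, -0.23 to 0.11 for gsk3bb, -0.36 to 0.0133 for cdk5r1b, -0.20 to 0.13 for bltp3b, -0.16 to 0.17 for znf385c, -0.0367 to 0.0733 for tcf15, -0.26 to 0.0817 for drc2, -0.24 to 0.0417 for krt8 and -0.21 to 0.0583 for fam114a1. The median of the 8 members ran from -0.41 without normoxia 2 to -0.16 without normoxia 3. Of the named genes only mpeg1.1 passed in any setting, without normoxia 2 (-1.998, limma adjusted p = 0.0353, against 0.622 or more in its other alternatives). Leaving out 1 array moved the difference of 61 of the 83 genes by over 1.5 times, 36 of them without normoxia 1 and 35 without normoxia 2. Medians of the remaining lists without 1 array ran from -0.26 to 0.0083 for microtubule proteins, -0.63 to -0.28 for radial glia and astroglia, -0.32 to 0.045 for neurons, -0.49 to -0.11 for oligodendrocytes, -0.27 to -0.17 for endothelium, -0.42 to -0.0833 for erythrocytes and 0.0583 to 0.14 for apolipoproteins and their receptors. The number of arrays limits the precision.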
